A study of Schizosaccharomyces pombe with 10 samples.

Results

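The 8 genes described here belong to the Sty1 and Atf1 stress pathway of the fission yeast Schizosaccharomyces pombe. They were taken by their identifiers from the table of counts, whatever their level, and are 8 of the 7268 genes in it. They are the kinase gene sty1 (SPAC24B11.06c), the transcription factor gene atf1 (SPBC29B5.01), the phosphatase gene pyp2 (SPAC19D5.01), the catalase gene ctt1 (SPCC757.07c), the glutathione peroxidase gene gpx1 (SPBC32F12.03c), the glycerol gene gpd1 (SPBC215.05) and the trehalose genes tps1 (SPAC328.03) and ntp1 (SPBC660.07). All 8 were among the 5067 genes with enough counts to be tested.

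Poly(A)-selected RNA was sequenced in 10 libraries from 5 strains, with 2 libraries each, to see how loss of cph1, cph2 or set2 changes the transcriptome. The labels name no stress treatment, and every strain grew in 2xYES, a rich medium, at 30 °C to an optical density (OD600) between 0.6 and 1.2. The strain called wt (YYX43sp) has the mating type h- in the dy1779 background and carries his3 d1, ura4-d18, leu1-32 and ade6-m216. Its derivatives cph1Δ (YYX46sp) and cph2Δ (YYX47sp) share all of these and have the named gene replaced by KANMX, a drug resistance cassette. The strain wt2 (YBL685sp) is given as h- with no other allele, and set2Δ (YBL686sp) is the same with set2 replaced by KANMX. Each deletion is represented by 1 strain, so what the deletion does and what is particular to that strain cannot be told apart. The labels do not say whether replicates were grown as separate cultures, so p-values measure only how far these libraries scatter, which may be technical.

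Sty1 is the stress-activated MAP kinase of fission yeast, related to mammalian p38, and is switched on through the kinase Wis1 by osmotic, oxidative, heat and starvation stress. It phosphorylates the bZIP factor Atf1, which with its partner Pcr1 binds DNA sites around the letters TGACGT and drives genes that detoxify peroxide and make glycerol and trehalose. Pyp2, itself made under the control of this pathway, is a tyrosine phosphatase that switches Sty1 off again. Cph1 and Cph2 are PHD finger proteins of a Clr6 histone deacetylase complex, and Set2 is a histone methyltransferase that travels with RNA polymerase.

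Letters of the kind Atf1 and Pcr1 recognise were looked for upstream of the genes, since they show which of the 8 carry one next to their start. The search covered TGACGT on both strands in the 300 bases before each start in the RefSeq annotation of build ASM294v3. These letters stood before 4 of the 8 genes and before 308 of 5112 coding genes (6.03%). The 100 bases from 140 to 41 bases upstream are given for these 4 genes, 5′ to 3′ on the strand of the gene, with the matched letters in capitals (RefSeq, ASM294v3). They lie at II:1546077-1546176 for atf1, III:58874-58973 for ctt1, II:4035426-4035525 for gpd1 and II:206441-206540 for ntp1, with ctt1 on the minus strand and the others on the plus strand.
atf1: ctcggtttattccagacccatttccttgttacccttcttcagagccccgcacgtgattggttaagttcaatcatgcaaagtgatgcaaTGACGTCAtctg
ctt1: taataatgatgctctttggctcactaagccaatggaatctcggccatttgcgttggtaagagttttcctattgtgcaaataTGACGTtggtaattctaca
gpd1: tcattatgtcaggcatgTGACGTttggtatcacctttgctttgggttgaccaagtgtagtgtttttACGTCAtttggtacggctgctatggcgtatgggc
ntp1: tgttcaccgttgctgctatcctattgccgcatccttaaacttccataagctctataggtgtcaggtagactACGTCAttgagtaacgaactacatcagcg

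In atf1 the matches of the 2 strands overlap and join into the palindrome TGACGTCA, 52 to 45 bases upstream. The match of ctt1 lies 59 to 54 bases upstream on the strand shown. That of ntp1 lies 69 to 64 bases upstream on the other strand. In gpd1 there is 1 match per strand, at 123 to 118 and at 74 to 69 bases. No match was found in the window of sty1, pyp2, gpx1 or tps1, which says only that these letters are not within 300 bases of the RefSeq start. For some genes the RefSeq start differs from the one used for counting. The window of pyp2 is I:5202356-5202655 in ASM294v3, while its counted exon starts at 5202366 in ASM294v2. By these positions most of that window would lie inside the counted exon. A match is a run of letters and was not tested for binding.

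The libraries held 9711537 to 13051467 assigned counts. Levels are given as CPM, counts scaled to library size and, by TMM, to composition, and standard deviations are over n = 2 libraries. The deleted genes followed the labels, with at most 8.6 CPM in their own deletion and at least 79.3 CPM in every other library. The lowest TMM factor was 0.846, in wt replicate 2, and the highest 1.25, in cph1Δ replicate 2, and the share of counts in the top 10 genes ran from 5.21% in cph1Δ replicate 2 to 10.1% in cph2Δ replicate 2. These 3 libraries stood farthest from the others, and results that rest on 1 of them are also given without it. Counting ignored strand and dropped reads that covered exons of more than 1 gene. Each comparison was tested by the quasi-likelihood method of edgeR, and p-values were adjusted by Benjamini-Hochberg over all 5067 genes tested (the edgeR adjusted p). A gene is said to rise or fall where this p is under 0.05, and each log2 fold change is given ± its standard error.

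Per length of exon, gpd1 was the most abundant of the 8 genes in all 5 strains, with strain means of 448 to 659 CPM per kilobase. It stood above 94.2% to 94.9% of the 4408 coding genes ranked by this measure. The peroxidase gene gpx1 (165 to 243 CPM per kilobase) and the trehalose synthesis gene tps1 (122 to 197) were each above at least 80.2% of coding genes in every strain. The catalase gene ctt1 had 56.9 to 159 CPM per kilobase and in cph1Δ, its highest strain, stood above tps1 (159 against 122). The trehalase gene ntp1 had 65.1 to 109.7 CPM per kilobase. The factor gene atf1 had 54.9 to 92.1 CPM per kilobase, and the phosphatase gene pyp2 had 14 to 28, above only 16% to 31.1% of coding genes. The kinase gene sty1 had 17.7 to 24 CPM per kilobase, a value that is too low by an unknown amount because most of its exon was not counted, as shown next.

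**Figure D1:**
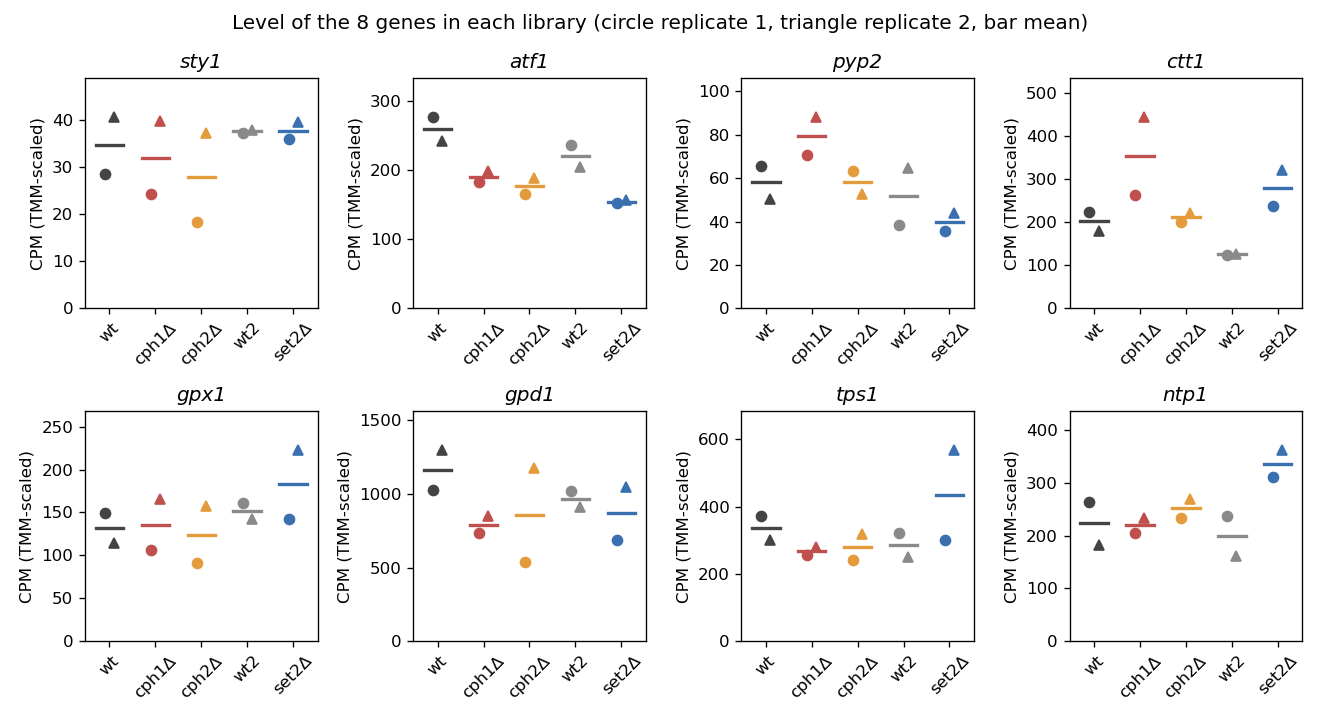
Level of the 8 genes in each library, in CPM after TMM scaling on a linear axis from 0, by strain. Circles are replicate 1, triangles replicate 2 and bars the mean of 2 libraries; atf1 is lower in each deletion than in its parent, and ctt1 runs from 124 CPM in wt2 to 444 CPM in cph1Δ.

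The gene for the kinase, sty1, lies on the minus strand of chromosome I at 206476 to 208044 in the annotation used for counting (ASM294v2). It is 1 exon of 1569 bases. An antisense non-coding RNA, SPNCRNA.622, covers 1270 of these bases (80.9%), and reads there went to neither gene, so the counts of sty1 come mainly from the 299 bases at its 3′ end. The non-coding RNA itself had 12.3 to 25.3 CPM over the 10 libraries, from the part of it outside sty1. Because counting ignored strand and dropped reads in the shared bases, a change of either transcript there would not appear in these counts.

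**Figure D2:**
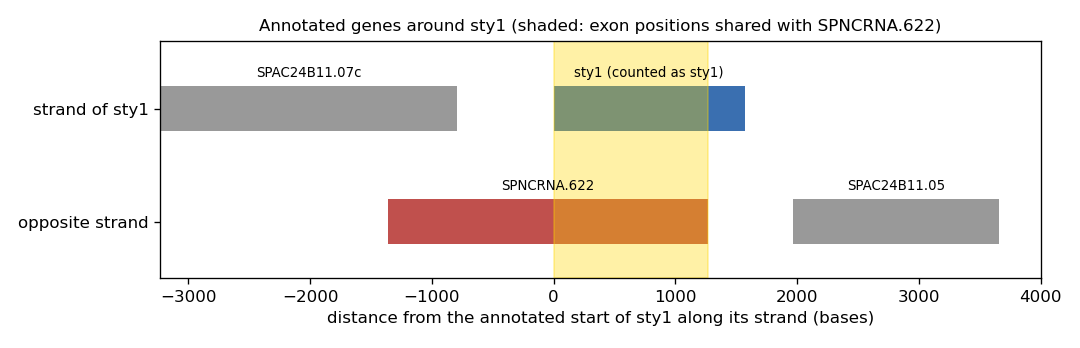
Annotated genes around sty1, drawn to scale by distance in bases from its annotated start along its own strand, with genes of the opposite strand in the lower row. The shaded stretch marks the 1270 bases that sty1 shares with SPNCRNA.622, which leave 299 bases of sty1 that can be counted.

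The level of sty1 was 28.5 and 40.7 CPM in the wt libraries, with 24.3 and 39.7 in those of cph1Δ, and 18.3 and 37.3 for cph2Δ. It was 37.3 and 37.9 CPM in wt2, and 35.9 and 39.6 in set2Δ. The libraries of cph2Δ lay farthest apart, and every deletion overlapped its parent. The log2 fold change was -0.11 ± 0.33 in cph1Δ (edgeR adjusted p = 0.865), with a 95% interval from -0.84 to 0.62. In cph2Δ it was -0.31 ± 0.33 (edgeR adjusted p = 0.605; interval -1.05 to 0.42). In set2Δ it was 0.0051 ± 0.33 (edgeR adjusted p = 0.996; interval -0.72 to 0.73). The intervals reach past a log2 change of 0.6 on at least 1 side in each comparison. By mean level the strains ran from set2Δ (37.7 CPM) over wt2, wt and cph1Δ to cph2Δ (27.8 CPM), and each strain overlapped its neighbour in this order.

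The gene for the transcription factor, atf1, lay lower in each deletion than in its parent, with no overlap, but did not pass the test in any of them. It has 2 exons on chromosome II, at 1546194 to 1546464 and 1547320 to 1549862, of which 61 bases are shared with SPNCRNA.1441. It stood at 277 and 242 CPM in wt, against 183 and 198 for cph1Δ, and 166 and 189 for cph2Δ. In wt2 it stood at 236 and 205 CPM, and in set2Δ at 152 and 157. Both libraries of each deletion therefore lay below both libraries of its parent, and those of set2Δ were the lowest of all 10. Of all genes tested, 23.1% in cph1Δ, 22.0% in cph2Δ and 26.8% in set2Δ lay below the parent in this way. The log2 fold change of atf1 was -0.44 ± 0.17 in cph1Δ, or 1.36-fold lower (edgeR adjusted p = 0.155, unadjusted p = 0.025). It was -0.55 ± 0.17 in cph2Δ, or 1.46-fold lower (edgeR adjusted p = 0.0824, unadjusted p = 0.00873), and DESeq2 called this difference (-0.59, adjusted p = 0.0198). In set2Δ it was -0.51 ± 0.17, or 1.43-fold lower (edgeR adjusted p = 0.128, unadjusted p = 0.0121; DESeq2 adjusted p = 0.0505). The values in cph1Δ and cph2Δ are set against the same 2 wt libraries and are not independent of each other. Leaving out 1 library moved the value between -0.56 and -0.35 in cph1Δ, -0.67 and -0.44 in cph2Δ, and -0.62 and -0.41 in set2Δ, and with no scaling factor, where the median of all genes in cph1Δ moved to 0.32, the value there was -0.15. The parents themselves did not overlap either, with wt2 lower than wt by a log2 difference of -0.23 ± 0.17 (edgeR adjusted p = 0.865). The order of strain means was wt, wt2, cph1Δ, cph2Δ and set2Δ, from 259 ± 24.8 to 154 ± 3.09 CPM, and only cph1Δ and cph2Δ overlapped as neighbours.

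The gene for the Sty1 phosphatase, pyp2, was highest in cph1Δ, but did not pass the test in any deletion. It is 1 exon on the plus strand of chromosome I at 5202366 to 5205202, and shares 48 bases with emc10. Its level was 65.7 and 50.4 CPM in wt, against 70.5 and 88.3 for cph1Δ, and 63.5 and 52.7 for cph2Δ. It was 38.4 and 64.9 CPM in wt2, and 35.5 and 43.8 in set2Δ. Both cph1Δ libraries lay above every other library. In cph1Δ the log2 fold change was 0.45 ± 0.26 (edgeR adjusted p = 0.303), and the groups did not overlap. In cph2Δ it was 0.00013 ± 0.26 (edgeR adjusted p = 1; 95% interval -0.57 to 0.57). In set2Δ it was -0.38 ± 0.26 (edgeR adjusted p = 0.502), with overlap. The effect of cph1 minus that of set2 was 0.83 ± 0.37, with an unadjusted p of 0.0434 and an edgeR adjusted p of 0.56. It was 0.40 without wt2 replicate 2 and 1.16 without wt2 replicate 1. By mean, cph1Δ (79.4 CPM) was 2-fold above set2Δ (39.6 CPM), and the neighbours cph2Δ, wt, wt2 and set2Δ overlapped in turn.

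The catalase gene ctt1, whose product breaks down hydrogen peroxide, was the only member that passed the test in any comparison. It is 1 exon of 2212 bases on the minus strand of chromosome III at 56654 to 58865, shares no position with another gene, and carries 1 of the TGACGT matches printed above. Its level was 124 and 127 CPM in wt2, and 237 and 321 in set2Δ. Both set2Δ libraries lay well above both wt2 libraries, which were the lowest of all 10. It rose in set2Δ by 1.15 ± 0.26 on the log2 scale, or 2.21-fold (edgeR adjusted p = 0.0261; 95% interval 0.58 to 1.71; DESeq2 adjusted p = 8.7e-04). Of all genes tested, 93.4% had a lower log2 fold change. In RNA from whole cultures, more cells that express the gene and more transcript per cell cannot be told apart, here as elsewhere. The call was lost without set2Δ replicate 2 (0.91, edgeR adjusted p = 0.18), without wt2 replicate 1 (1.13, 0.166) and without wt2 replicate 2 (1.16, 0.173). It held without set2Δ replicate 1 (1.35, 0.0454), and with no scaling factor the value was 1.19 (edgeR adjusted p = 0.0907).

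In wt the catalase gene stood at 223 and 180.5 CPM. The libraries of cph1Δ had 262 and 444, and those of cph2Δ 200.1 and 222. The 2 cph1Δ libraries lay above those of wt but 0.76 apart from each other on the log2 scale, while cph2Δ overlapped wt. The log2 fold change was 0.81 ± 0.25 in cph1Δ (edgeR adjusted p = 0.0953), and DESeq2 called it (0.76, adjusted p = 0.0444). That value rested on replicate 2, the library with the scaling factor of 1.25: it was 0.37 without it (edgeR adjusted p = 0.634) and 1.15 without replicate 1 (edgeR adjusted p = 0.0255). In cph2Δ it was 0.066 ± 0.25 (edgeR adjusted p = 0.898; 95% interval -0.49 to 0.62). The parents differed too, since wt2 was lower than wt by a log2 difference of -0.68 ± 0.26 with no overlap (edgeR adjusted p = 0.607, unadjusted p = 0.0215). By mean the strains ran from cph1Δ (353 ± 129 CPM) over set2Δ (279 ± 59), cph2Δ (211 ± 15.6) and wt (202 ± 30.1) to wt2 (126 ± 2.08). The neighbours cph1Δ and set2Δ overlapped, as did cph2Δ and wt, and the highest mean was 2.8 times the lowest, the widest range of the 8 genes.

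The glutathione peroxidase gene gpx1, which removes peroxides with glutathione, did not pass the test in any deletion. It is 1 exon of 752 bases on the minus strand of chromosome II at 2788863 to 2789614, and shares 25 bases with gem7. It stood at 149 and 114 CPM in wt, against 106 and 166 for cph1Δ, and 91.1 and 157 for cph2Δ. The wt2 libraries had 161 and 142 CPM, and those of set2Δ 143 and 223. The libraries of each deletion spread widely, and every deletion overlapped its parent. The log2 fold changes were 0.056 ± 0.30 in cph1Δ (edgeR adjusted p = 0.929), -0.081 ± 0.30 in cph2Δ (0.895) and 0.27 ± 0.30 in set2Δ (0.702). In set2Δ the 95% interval ran from -0.39 to 0.93. All neighbours overlapped in the order of means, from set2Δ (183 ± 56.4 CPM) to cph2Δ (124 ± 46.3 CPM).

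The gene gpd1, for the glycerol-3-phosphate dehydrogenase that makes the osmolyte glycerol, lay below its parent in both cph1Δ libraries. It is 1 exon on the plus strand of chromosome II at 4035580 to 4037342 and shares no position with another gene. Its level was 1025 and 1299 CPM in wt, against 732 and 847 for cph1Δ, and 536 and 1175 for cph2Δ. It was 1020.1 and 913 CPM in wt2, and 689.5 and 1048 in set2Δ. The groups were apart only in cph1Δ, and the cph2Δ libraries differed from each other by 1.13 on the log2 scale. Log2 fold changes were -0.56 ± 0.34 in cph1Δ (edgeR adjusted p = 0.344), -0.44 ± 0.34 in cph2Δ (0.472) and -0.15 ± 0.34 in set2Δ (0.863). None passed, and the 95% interval in cph1Δ ran from -1.31 to 0.20. Among strain means, wt (1162 ± 193 CPM) and wt2 (967 ± 75.5 CPM) were apart, while wt2, set2Δ, cph2Δ and cph1Δ overlapped in turn.

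Trehalose, a sugar that protects proteins under stress, is made by way of trehalose-6-phosphate synthase, the product of tps1. This gene is 1 exon on the plus strand of chromosome I at 3479098 to 3481305, and shares 63 bases with dbl4. It stood at 372 and 301 CPM in wt, against 256 and 281 for cph1Δ, and 241 and 318 for cph2Δ. The wt2 libraries had 323 and 251 CPM, and those of set2Δ 302 and 569. Replicate 2 of set2Δ was far above every other library, while replicate 1 lay within the range of wt2. In set2Δ there was a log2 fold change of 0.60 ± 0.29 (edgeR adjusted p = 0.296), and its libraries were 0.91 apart on the log2 scale. In cph1Δ it was -0.32 ± 0.29 (edgeR adjusted p = 0.511), with no overlap, and in cph2Δ -0.26 ± 0.29 (0.613), with overlap. The effect of cph1 minus that of set2 was -0.93 ± 0.41, with an unadjusted p of 0.0427 and an edgeR adjusted p of 0.559. Without set2Δ replicate 2 this difference was -0.40 and the log2 fold change in set2Δ 0.07. All neighbours overlapped in the order of strain means, from set2Δ (435 ± 189 CPM) to cph1Δ (268 ± 17.2 CPM).

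The neutral trehalase that splits trehalose again is encoded by ntp1, which carries a TGACGT match on the other strand. It is 1 exon of 3062 bases on the plus strand of chromosome II at 206580 to 209641, and 331 of these (10.8%) are shared with the antisense RNA SPNCRNA.1327, which had 1.77 to 5.73 CPM. Its level was 264 and 183 CPM in wt, against 205 and 233 for cph1Δ, and 234 and 269 for cph2Δ. The wt2 libraries had 237 and 161 CPM, and those of set2Δ 309.8 and 362. Both set2Δ libraries lay above all the others. The log2 fold change in set2Δ was 0.75 ± 0.24, or 1.69-fold higher (edgeR adjusted p = 0.109, unadjusted p = 0.00915), and DESeq2 called it (adjusted p = 0.0493). In cph1Δ it was -0.029 ± 0.24 (edgeR adjusted p = 0.953) and in cph2Δ 0.17 ± 0.24 (0.705), both with overlap. The effect of cph1 minus that of set2 was -0.78 ± 0.34, with an unadjusted p of 0.0407 and an edgeR adjusted p of 0.551. It was -0.49 without wt replicate 1, and the value in set2Δ was 0.50 without wt2 replicate 2. By mean, set2Δ (336 ± 36.9 CPM) was apart from the next strain, cph2Δ (252 ± 24.8 CPM), and the other neighbours overlapped down to wt2 (199 ± 53.9 CPM).

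**Figure D3:**
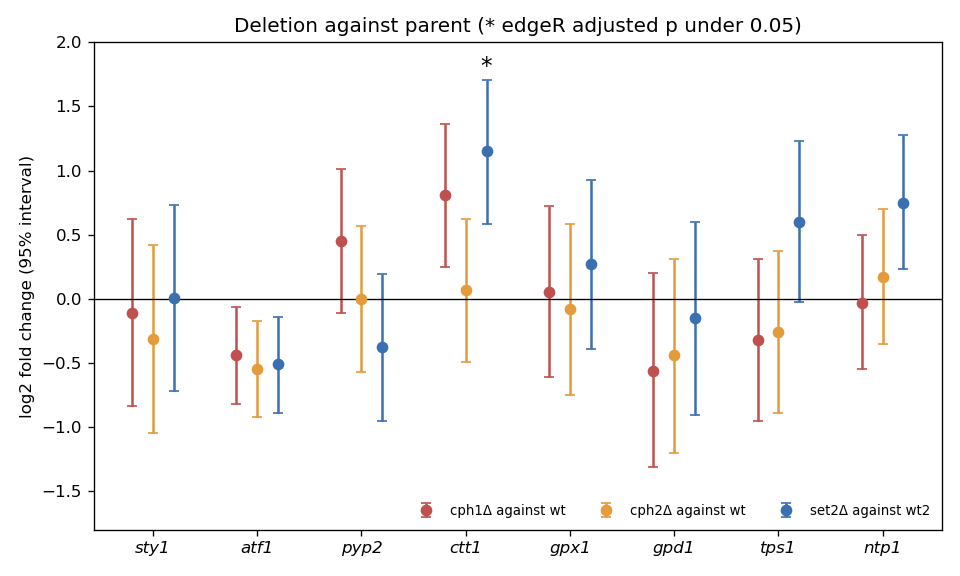
Log2 fold change of each gene in a deletion against its parent, with 95% intervals from the edgeR fit (n = 2 libraries per group). The interval of ctt1 in set2Δ, 0.58 to 1.71, is marked with a star for an edgeR adjusted p under 0.05; atf1 is below 0 in all 3 deletions without passing the adjusted test.

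Counted together, 0 of the 8 genes passed in cph1Δ, where 5.62% of all genes tested did (285 of 5067, edgeR adjusted p under 0.05; 5.31% higher and 0.316% lower). The unadjusted p was under 0.05 for 2 of them, atf1 and ctt1, beside 23.3% of all genes, and DESeq2 called 1, ctt1, beside 10.2%. The groups were apart with cph1Δ higher for 2 members (28.8% of all genes) and lower for 3 (23.1%). In cph2Δ 0 passed, beside 6.12% of all genes (5.21% higher and 0.908% lower), with 1 member, atf1, under an unadjusted 0.05 (23.5% of all genes) and the same 1 called by DESeq2 (11.3%). There the groups were apart higher for 0 members (27.9%) and lower for 1 (22.0%).

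In set2Δ 1 of the 8 genes passed, ctt1, and it was higher, beside 4.89% of all genes called, 4.32% higher and 0.572% lower. The unadjusted p was under 0.05 for 3 members, atf1, ctt1 and ntp1 (18.2% of all genes), and DESeq2 called 2, ctt1 and ntp1 (7.16%). The groups were apart higher for 2 members (31.3% of all genes) and lower for 1 (26.8%). Read against these shares, the counts show nothing particular to the 8 genes. The median log2 fold change of the 8 was -0.07 in cph1Δ, -0.17 in cph2Δ and 0.14 in set2Δ, where all genes tested had 0.02, 0.0089 and 0.034.

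Between the parents, 0 of the 8 genes passed in wt2 against wt, where 0.197% of all genes did. The unadjusted p was under 0.05 for 1, ctt1, beside 7.26% of all genes, and DESeq2 called 0 (1.24%). Of the members, 3 were apart with wt2 lower, atf1, ctt1 and gpd1, beside 18.1% of all genes, and 0 with wt2 higher (19.7%). Between cph1Δ and cph2Δ, 0 members passed, beside 0.0592% of all genes. There 1 had an unadjusted p under 0.05 (6.93% of all genes) and DESeq2 called 0 (0.296%). That gene was ctt1, with 0.74 ± 0.25 higher in cph1Δ on the log2 scale (edgeR adjusted p = 0.677), or 0.32 without cph1Δ replicate 2. The groups were apart with cph1Δ higher for ctt1 and pyp2 (17.7% of all genes) and lower for ntp1 (16.4%).

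Whether a deletion's effect differed from that of set2 was tested as the difference of the log2 fold changes. For cph1 minus set2, 0 of the 8 genes passed, beside 0.868% of all genes, with 3 under an unadjusted 0.05 (8.41% of all genes) and 0 called by DESeq2 (1.70%). For cph2 minus set2, 0 passed, beside 1.26% of all genes, with 1 under an unadjusted 0.05 (11.6%) and 0 called by DESeq2 (2.23%). That gene was ctt1, whose effect in cph2Δ lay below that in set2Δ by a log2 difference of -1.08 ± 0.36 (edgeR adjusted p = 0.257; 95% interval -1.87 to -0.29). For atf1 the effects lay close, with differences of 0.07 ± 0.24 for cph1 minus set2 (interval -0.46 to 0.60) and -0.031 ± 0.24 for cph2 minus set2 (-0.56 to 0.50). The passing of ctt1 in set2Δ and not in the other strains is therefore not shown to be a difference between the deletions.

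**Figure D4:**
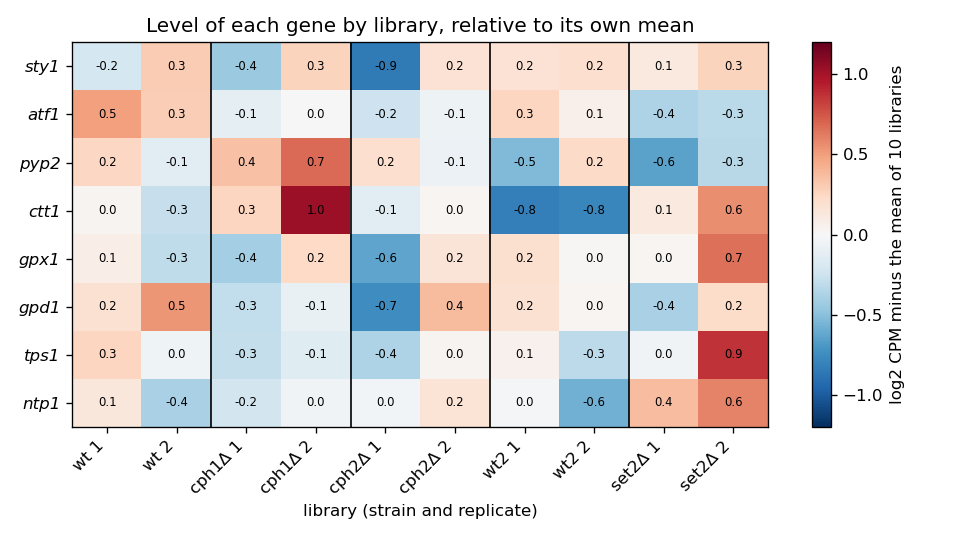
Log2 CPM of each gene in each library minus the gene's mean over the 10 libraries, on a scale from blue (lower) to red (higher), with strains separated by lines. The highest cells are ctt1 in cph1Δ replicate 2 and tps1 in set2Δ replicate 2, and the lowest are in cph2Δ replicate 1 and in wt2 for ctt1.

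The 8 genes did not move as a block over the 10 libraries. Pearson correlations of log2 CPM between members, which share depth and scaling of the same 10 libraries, ran from -0.47 for pyp2 and ntp1 to 0.78 for gpx1 and tps1. The enzyme genes tps1 and ntp1 had 0.73, sty1 had 0.74 with gpd1 and 0.72 with gpx1, and atf1 had -0.45 with ntp1 and -0.38 with ctt1. Some libraries stood out for several genes: cph2Δ replicate 1 was low for sty1, gpx1 and gpd1 together, and set2Δ replicate 2 was high for gpx1 and tps1 together. Within strains, the median gap between the 2 libraries over the 8 genes was 0.37 on the log2 scale in set2Δ and 0.19 in wt2, where all genes tested had 0.21 and 0.19. Replicate scatter was smallest for atf1, with a biological coefficient of variation of 0.141, and largest for gpd1 (0.245) and sty1 (0.241), against a common value of 0.211.

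Coding genes with the most similar profile over the 10 libraries were looked up among about 4400 candidates that share no exon position with the member, as a description without a test. The profile of ctt1 was most like those of SPAPB24D3.08c and tap42, both with a Pearson correlation of 0.96. For pyp2 it was the helicase gene spb4 (0.94), for sty1 the splicing factor gene prp40 (0.88), and for gpd1 the ribosomal protein gene rpl4102 (0.90). The gene vip1 came first for both gpx1 (0.92) and tps1 (0.88), and pup1, a proteasome gene, for ntp1 (0.87). The gene closest to atf1 was pol5 (0.89), whose level is uncertain because 91.8% of its exon is shared with srr1. These are the highest of many values over the same 10 libraries, which share depth and scaling.

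Of the tested genes that overlap or adjoin the members, isp4 and wwm2 passed in set2Δ and none passed in cph1Δ or cph2Δ. The shares over all genes tested were 5.62% in cph1Δ, 6.12% in cph2Δ and 4.89% in set2Δ. DESeq2 called isp4 higher in cph2Δ as well (adjusted p = 0.0308), beside 11.3% of all genes, but not in cph1Δ (0.0916). The gene isp4, for an oligopeptide transporter, lies 430 bases beyond the 3′ end of atf1 on the opposite strand, so that both genes end towards each other. It stood at 29.1 and 28 CPM in wt2 and at 57.5 and 128 in set2Δ, apart, and rose by 1.70 ± 0.31 on the log2 scale (edgeR adjusted p = 0.0102). In wt it was at 40.1 and 39.6 CPM, against 73.8 and 68.7 for cph1Δ, and 69.8 and 92.7 for cph2Δ, also apart from wt, with log2 fold changes of 0.84 ± 0.30 (edgeR adjusted p = 0.133) and 1.03 ± 0.30 (0.0682). Upstream of ntp1, with a gap of 858 bases on the same strand, wwm2 rose in set2Δ by 1.46 ± 0.30 (edgeR adjusted p = 0.0167), from 177 and 109 CPM in wt2 to 466 and 319.8 in set2Δ. The gene spg4, 199 bases downstream of tps1, had 0.65 ± 0.18 in cph1Δ without passing (edgeR adjusted p = 0.0653).

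Around the 8 genes, 3 lists of pathway genes were examined: Sty1 signalling (22 genes, 20 tested), targets of the stress response (23, 22 tested) and oxidative stress (20, 18 tested). No member of any list fell in a deletion by edgeR. DESeq2 called some lower. In cph1Δ this was ecl3, a target at a mean of 1.99 CPM there (edgeR log2 fold change -2.47 ± 0.74, edgeR adjusted p = 0.081, DESeq2 adjusted p = 0.0106). In cph2Δ these were ecl3 (DESeq2 adjusted p = 0.0149), the signalling genes mpr1 (0.0347), ptc4 (0.0416) and pcr1 (0.0445), and pap1 of the oxidative stress list (0.0348). Some were called higher by DESeq2 and not by edgeR. In cph2Δ this was tpx1 of the oxidative stress list (DESeq2 adjusted p = 0.0135). In set2Δ these were the signalling gene tdh1 (0.00293), the target gst2 (0.0437) and sod1 of the oxidative stress list (0.0441). Of the 20 signalling genes tested, 0 passed in cph1Δ (7 with an unadjusted p under 0.05, 0 by DESeq2), 1 rose in cph2Δ (7 unadjusted, 4 by DESeq2), and 0 passed in set2Δ (2 unadjusted, 1 by DESeq2). Over all genes tested 5.62%, 6.12% and 4.89% passed, with unadjusted shares of 23.3%, 23.5% and 18.2% and DESeq2 shares of 10.2%, 11.3% and 7.16%. The medians of the list were -0.23, -0.19 and -0.10, where all genes tested had 0.02, 0.0089 and 0.034. The riser was mak3, a histidine kinase gene of the peroxide sensing branch. It was at 133 and 132 CPM in wt and 197 and 241 in cph2Δ, with 0.72 ± 0.18 (edgeR adjusted p = 0.0352). In cph1Δ mak3 was at 192 and 205 CPM, also apart from wt, with 0.58 ± 0.18 (edgeR adjusted p = 0.0849). Without wt replicate 2 or without cph2Δ replicate 2 no signalling gene passed in cph2Δ, and without cph2Δ replicate 1 there were 4. The partner of Atf1, pcr1, had -0.25 ± 0.27 in cph1Δ (edgeR adjusted p = 0.596), -0.79 ± 0.27 in cph2Δ (0.104) and -0.52 ± 0.27 in set2Δ (0.336), and the kinase gene wis1, which activates Sty1, had -0.31 ± 0.21 (0.402), 0.084 ± 0.21 (0.847) and -0.42 ± 0.22 (0.339).

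Among the 22 tested targets of the stress response, 3 rose in cph1Δ, 1 in cph2Δ and 3 in set2Δ, beside 5.31%, 5.21% and 4.32% of all genes tested. In either direction, 9, 4 and 8 had an unadjusted p under 0.05, beside 23.3%, 23.5% and 18.2% of all genes. DESeq2 called 4, 2 and 4, beside 10.2%, 11.3% and 7.16%. The 3 that rose in cph1Δ were ecl1, a gene tied to chronological lifespan, zym1, for the zinc-binding metallothionein, and tms1, of the sugar alcohol dehydrogenase family. The level of ecl1 was 41 and 36.8 CPM in wt, against 111 and 173 for cph1Δ, and 96.6 and 66.5 for cph2Δ, and it rose by 1.87 ± 0.24 (edgeR adjusted p = 0.00195) and 1.07 ± 0.24 (0.0235). It was 33.7 and 33.4 CPM in wt2, and 28.2 and 31 in set2Δ (-0.18 ± 0.24), and the effect of cph1 exceeded that of set2 by 2.05 ± 0.34 on the log2 scale (edgeR adjusted p = 0.0124). The other rises in cph1Δ were 1.29 ± 0.34 for zym1 (edgeR adjusted p = 0.0472) and 1.14 ± 0.27 for tms1 (0.0323). With no deletion, wt2 had 191 and 96.1 CPM of zym1 against 50.5 and 44 in wt (log2 difference 1.61 ± 0.34, edgeR adjusted p = 0.112, DESeq2 adjusted p = 0.00111). The level of tms1 was also apart from the parent and higher in cph2Δ (0.81 ± 0.27, edgeR adjusted p = 0.0977) and in set2Δ (0.69 ± 0.27, 0.193).

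In set2Δ the risers were dak2, for a dihydroxyacetone kinase of glycerol breakdown, the small heat shock protein gene hsp16 and the pyridoxal reductase gene plr1. The level of dak2 was 14 and 17.6 CPM in wt2 and 56.7 and 68 in set2Δ, a rise of 1.99 ± 0.30 (edgeR adjusted p = 0.00381), though 31.4% of its exon is shared with SPAC977.17 and was not counted. In cph2Δ it was 21 and 21 CPM against 36.8 and 26.4 in wt (-0.59 ± 0.29), and its effect in cph2Δ lay below that in set2Δ by a log2 difference of -2.57 ± 0.41 (edgeR adjusted p = 0.00977). The undeleted parents were apart too, with dak2 lower in wt2 than in wt (log2 difference -1.01 ± 0.29, edgeR adjusted p = 0.302). For hsp16 the libraries were uneven, at 237 and 209 CPM in wt2 and 339 and 984 in set2Δ, with 1.57 ± 0.40 (edgeR adjusted p = 0.0466), and set2Δ replicate 1 lay within the range of wt (427 and 285 CPM). The gene plr1 rose by 1.10 ± 0.26 (edgeR adjusted p = 0.0363), from 187 and 189.6 to 316 and 490.3 CPM, and the wt libraries, at 366 and 481, lay between those of set2Δ. The medians of the targets were 0.079 in cph1Δ, -0.13 in cph2Δ and 0.36 in set2Δ, against 0.02, 0.0089 and 0.034 over all genes tested. Fewer passed without 1 library: 1 in cph1Δ without cph1Δ replicate 2 or wt replicate 2, 0 in cph2Δ without cph2Δ replicate 1 or wt replicate 2, and 1 in set2Δ without set2Δ replicate 2 or either wt2 library.

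Of the 18 tested genes of oxidative stress, 1 rose in cph1Δ, 0 passed in cph2Δ (8 with an unadjusted p under 0.05, 2 by DESeq2) and 1 rose in set2Δ. Over all genes tested 5.62%, 6.12% and 4.89% passed, so that 1 of 18 lies close to the background. The 8 of 18 in cph2Δ exceed the unadjusted share of 23.5%, with values on both sides of 0. The 2 called there by DESeq2 lie close to its share of 11.3%. In cph1Δ 3 and in set2Δ 4 had an unadjusted p under 0.05, beside 23.3% and 18.2% of all genes. The riser in cph1Δ was caf5, of the drug efflux family, with 49.4 and 43.7 CPM in wt and 65.6 and 352 in cph1Δ, a rise of 2.16 ± 0.56 (edgeR adjusted p = 0.0466) in which replicate 2 stood far above replicate 1, and 41.3% of its exon is shared with SPNCRNA.1585. The riser in set2Δ was bfr1, a drug transporter gene, with 275 and 301 CPM in wt2 and 525 and 540.0 in set2Δ, a rise of 0.89 ± 0.20 (edgeR adjusted p = 0.0292). Neither set2Δ library overlapped wt2, and both lay above wt (438 and 481 CPM). The undeleted parents were apart too, with bfr1 lower in wt2 than in wt (log2 difference -0.67 ± 0.20, edgeR adjusted p = 0.352, DESeq2 adjusted p = 0.0189). The libraries of cph1Δ (558 and 671 CPM) and cph2Δ (578 and 689) lay above those of set2Δ. Without any 1 of the 4 compared libraries no gene of this list passed in set2Δ, and in cph1Δ none passed without cph1Δ replicate 2 or either wt library. The AP-1 type factor gene pap1 had -0.25 ± 0.19 in cph1Δ (edgeR adjusted p = 0.455), -0.50 ± 0.19 in cph2Δ (0.142) and 0.27 ± 0.19 in set2Δ (0.52). The medians were 0.0022, -0.074 and 0.30, against 0.02, 0.0089 and 0.034 over all genes tested.

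**Figure D5:**
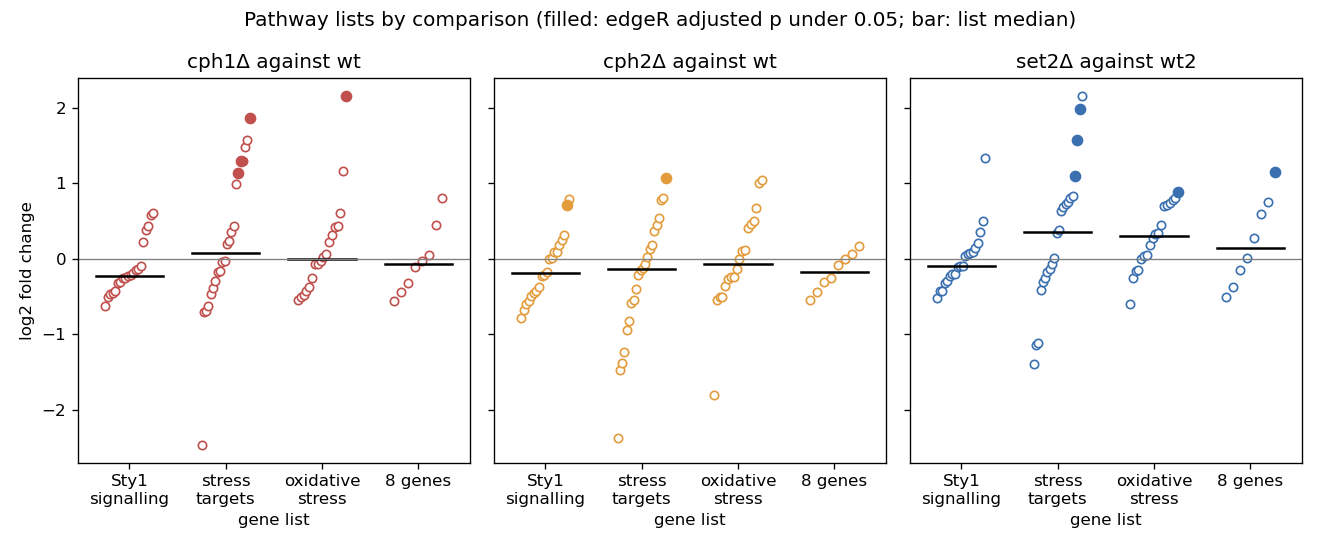
Log2 fold change of each tested gene of the 3 pathway lists and of the 8 genes, in each deletion against its parent; filled points have an edgeR adjusted p under 0.05 and bars are list medians. The list of stress response targets has 3 filled points in cph1Δ, 1 in cph2Δ and 3 in set2Δ, all above 0.

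The promoter letters of the 4 genes shown above were also found before 4 of 22 signalling genes, 3 of 23 targets and 2 of 20 oxidative stress genes. Of the 8 members, those with a match (atf1, ctt1, gpd1 and ntp1) had log2 fold changes in set2Δ of -0.51, 1.15, -0.15 and 0.75. Those without one in the window searched (sty1, pyp2, gpx1 and tps1) had 0.0051, -0.38, 0.27 and 0.60. Genes with and without the letters thus lay on both sides of 0.

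Counting also limits which pathway genes could be read. The list genes atf21, atf31, fbp1, gcs2 and obr1 were listed at 0 in every library. In 4 of them every exon position is shared with another gene, and in atf31 89.8% is. Over all 5106 coding genes, 494 were at 0 in every library, and 362 of these (73.3%) share every exon position. The 0 of a gene that shares every exon position says nothing of its expression, while the other genes at 0, atf31 among them, have positions of their own that were counted.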

How the data were processed

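Per the submitters' processing notes, STAR 2.7.10a, SAMtools 1.16.1, Picard, featureCounts of Subread 2.0.1, DESeq2 1.36.0, edgeR 3.38.4 and the build ASM294v2 were used. What the authors deposited is a table of raw read counts, not normalized; per the file headers, featureCounts summed exons by gene of annotation release 57 of that build, with no option for strand, pairs or overlapping genes. The exon length deposited beside them was used for CPM per kilobase. Of the 7268 identifiers, 6846 matched the RefSeq gene table.

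Groups came from the sample titles. Counts were tested with edgeR 4.0.16 (limma 3.58.1, R 4.3.3): filterByExpr kept 5067 genes (those removed held 0.0105% of counts), TMM scaling, 1 mean per strain over all 10 libraries, 5 residual degrees of freedom, quasi-likelihood F-tests and Benjamini-Hochberg adjustment with a threshold of 0.05. DESeq2 1.42.0 was an alternative, as were other scaling, no filter, only the compared groups, a replicate block and leaving out each library. The method was tested on simulated counts. Depth was 9711537 to 13051467 counts per library. Intervals are at 95%; replicates differed beyond counting error (chi-square per degree of freedom 38.3 to 115). Standard errors come from the log2 fold change and its F statistic, and log2 CPM for correlations used a prior count of 2.

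The 8 genes and the lists were chosen with earlier results of these data known. From each list, up to 4 genes per direction with the largest change past the test were named. The genes pcr1, wis1, pap1, mpr1, ptc4, ecl3, tpx1, tdh1, gst2 and sod1 were added after their values were seen. For each member, overlapping and adjacent genes and those with the most similar profile were looked up. The promoter window, RefSeq build ASM294v3, is of another build than the counts, and no coordinates were carried between them. Protein sequences were not used here.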

Additional observations from a re-analysis of the deposited data

Results flagged for a closer look

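In 2 genes of the pathway lists (20, 22 and 18 genes tested) the effect of a deletion differed from that of set2 by a test of the difference itself. Both are among the 22 tested targets of the stress response. Over all genes tested, 0.868% passed for cph1 minus set2 and 1.26% for cph2 minus set2. For ecl1 the effect of cph1 minus that of set2 was 2.05 ± 0.34 on the log2 scale (adjusted p = 0.0124, Benjamini-Hochberg over all genes tested in edgeR). It lay above wt in both cph1Δ libraries and below wt2 in both set2Δ libraries. For dak2 the effect of cph2 minus that of set2 was -2.57 ± 0.41 (edgeR adjusted p = 0.00977), with both cph2Δ libraries below wt and both set2Δ libraries above wt2. The undeleted parents were also apart for dak2, with wt2 lower than wt (log2 difference -1.01 ± 0.29, edgeR adjusted p = 0.302). None of the 8 genes passed the test of a difference between effects.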

How the results depend on the processing

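Of 624 values of the 8 genes under other settings, 552 kept their direction and their side of the threshold, 4 lost the call, 4 gained it and 64 changed sign; the cause was not tested. No value of over 0.44 in size changed sign. The calls lost were those of ctt1 in set2Δ given above.

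With no scaling factor, the median of all genes moved to 0.32 in cph1Δ, 0.23 in cph1Δ against cph2Δ, 0.24 in cph1 minus set2 and 0.11 in wt2 against wt. Signs then changed for sty1 (0.24) and ntp1 (0.26) in cph1Δ, gpd1 (0.17), tps1 (0.20) and ntp1 (0.051) in cph1Δ against cph2Δ, and sty1 (0.19) and gpx1 (0.054) in cph1 minus set2. Under RLE, no filter, DESeq2 and only the compared groups, pyp2 in cph2Δ became -0.042, -0.025, -0.042 and -0.031, and sty1 in set2Δ -0.017, -0.016, -0.017 and -0.0054.

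The deviations of same-numbered libraries correlated from -0.413 to 0.264 and no label names a shared batch. Same-numbered libraries were therefore not treated as pairs, though with 2 libraries per strain these values cannot exclude a pairing. A replicate block gave pyp2 -0.0028 in cph2Δ, sty1 -0.007 in set2Δ, and 260, 275 and 227 genes called in cph1Δ, cph2Δ and set2Δ. It changed no call of a member.

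Members called became 1 in cph1Δ, 1 in cph2Δ and 2 in set2Δ with DESeq2, and 0 in set2Δ with no scaling factor. Without 1 library they were 0 to 1 in cph1Δ and 0 to 1 in set2Δ.

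Calls over all genes were 285 in cph1Δ (458 with no scaling factor, 485 with DESeq2, 168 with the compared groups, 41 to 311 without 1 library). They were 310 in cph2Δ (153, 548, 121, 64 to 440), and 248 in set2Δ (136 with no scaling factor, 54 to 130 without 1 library). For wt2 against wt there were 10 (4 with no scaling factor, 32 with no filter, 63 with DESeq2, 4 with the compared groups, 6 to 12 without 1 library). For cph1Δ against cph2Δ there were 3 (8 with no filter, 15 with DESeq2, 2 to 26 without 1 library). For cph1 minus set2 there were 44 (18 with no scaling factor, 69 with no filter, 86 with DESeq2, 20 to 45 without 1 library), and for cph2 minus set2 64 (29 with no scaling factor, 113 with DESeq2, 20 to 102 without 1 library).

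Ranges without 1 library crossed 0 in cph1Δ for ntp1 (-0.29 to 0.25), sty1 (-0.51 to 0.21) and gpx1 (-0.31 to 0.36). They did in cph2Δ for gpx1 (-0.55 to 0.26), pyp2 (-0.21 to 0.20), ctt1 (-0.11 to 0.23), ntp1 (-0.10 to 0.46), sty1 (-0.94 to 0.11) and gpd1 (-1.14 to 0.018). In set2Δ they did for sty1 (-0.071 to 0.071), pyp2 (-0.71 to 0.042), gpd1 (-0.49 to 0.11) and gpx1 (-0.087 to 0.55). In wt2 against wt this held for sty1 (-0.12 to 0.38), pyp2 (-0.60 to 0.16) and ntp1 (-0.47 to 0.12), and in cph1Δ against cph2Δ for tps1 (-0.25 to 0.15), sty1 (-0.23 to 0.80), gpx1 (-0.21 to 0.57) and gpd1 (-0.58 to 0.56). In cph1 minus set2 it held for sty1 (-0.49 to 0.22), atf1 (-0.039 to 0.17), ctt1 (-0.75 to 0.016) and gpx1 (-0.56 to 0.14), and in cph2 minus set2 for atf1 (-0.14 to 0.076), sty1 (-0.93 to 0.11), gpd1 (-0.97 to 0.18), pyp2 (-0.041 to 0.71) and gpx1 (-0.80 to 0.007).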
